A study of Homo sapiens with 12 samples.

Results

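Expression of 7 genes that derive from endogenous retroviruses, or share a transcription unit with one, was followed in MOLM-13 cells, a line of human acute myeloid leukemia with an MLL-AF9 fusion. The genes were ERV3-1, ZNF117, ERVK13-1, ERVK3-1, ERVMER34-1, ERVFRD-1 and ERVW-1. They were chosen by symbol, and the transcript rows of a symbol were summed. They make up 7 of the 46639 gene symbols of the table and 16 of its 100502 transcript rows. Total RNA was sequenced in 12 libraries, with 3 in each of 4 groups. Untreated cells carry a label of 96 h, and the other groups received 100 nM decitabine (DAC), 1 µM all-trans retinoic acid (ATRA) or both drugs (DAC+ATRA), each with a label of 72 h. All cells grew with fetal calf serum and GM-CSF. The 3 libraries of a group are technical triplicates by their labels, so a p-value here measures only the spread within 1 experiment on 1 line. The label times differ between untreated and treated cells, whereas the study's methods give a harvest at 72 h. Which is right could not be settled here. By the labels, time and treatment cannot be told apart in a comparison with untreated cells. No vehicle control was among the libraries. In the study's methods, ATRA was added later and so acted for less time than labelled.

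Endogenous retroviruses are remnants of ancient germline infections. Most copies no longer code for protein and are kept silent by DNA methylation and repressive histone marks. A few envelope genes have kept an open reading frame, and some of these serve the host, such as the syncytins that fuse trophoblast cells in the placenta. DAC is incorporated into DNA and traps the enzymes that methylate it, while ATRA activates retinoic acid receptors, which bind DNA as transcription factors. ERV3-1 carries a retroviral envelope reading frame, and ZNF117 is a zinc finger gene lying downstream of it on the same strand.

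Recovered reads ranged from 4.67 to 11.9 M per library (M for mega), and the groups that received DAC were the shallower ones. Myeloid genes such as CD33, FLT3 and LYZ had reads in 12 of 12 libraries. All 9 myeloid markers examined were detected in each library, and their summed normalised counts ranged from 52220 to 64640 in untreated cells, 168300 to 213000 with DAC, 15920 to 21850 with ATRA and 59210 to 62470 with both drugs. LYZ alone ranged from 5282 to 184600 over the 12 libraries, against 7130 to 14250 for FLT3 and 302.5 to 771.3 for CD33. The sums thus weigh the most abundant genes and do not show a shift of all 9 markers. Defining markers of B cells (MS4A1), epithelial cells (KRT19), fibroblasts (COL1A2) and trophoblast (CGA, PSG1) had 0 reads. CD3D and COL1A1 had low counts in 12 of 12 libraries, up to 37.6 and 86.3. The 2 T cell markers summed to between 2.51 and 37.6, and the part of any such marker in the results was not tested. In bulk RNA, fewer cells that express a gene and less RNA per cell cannot be told apart.

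The position of each gene on hg38 sets what its rows can measure. ERV3-1 (ENSG00000213462.5) lies on the minus strand at chr7:64990356-65006743, and ZNF117 (ENSG00000152926.16) overlaps it on the same strand at chr7:64971772-65006684. The ERV3-1 row, ENST00000394323.3, has 2 exons, and its exon 2 (64990356 to 64993414) holds all 1812 coding bases. The main ZNF117 row, ENST00000282869.11, has 4 exons, begins inside exon 2 of ERV3-1 and is coding only in exons 3 and 4. The rows share 681 exonic bases, which belong to exon 2 of ERV3-1 and exon 1 of ZNF117. Among the transcripts that have a row, 2525 bases were exclusive to the ERV3-1 row and 3089 to the main ZNF117 row. Annotated transcripts without a row were not considered, so exclusive bases can also lie in exons of those. Exclusive bases matter because the counting seldom gave reads to rows without them. Across the table, 11.97% of 19239 rows without an exclusive base on their strand had reads, against 58.8% of 44059 rows with 200 or more such bases. A joined transcript of both genes, which RefSeq lists as ERV3-1-ZNF117, was not analysed here, and its reads cannot be told apart from those of either gene.

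**Figure D1:**
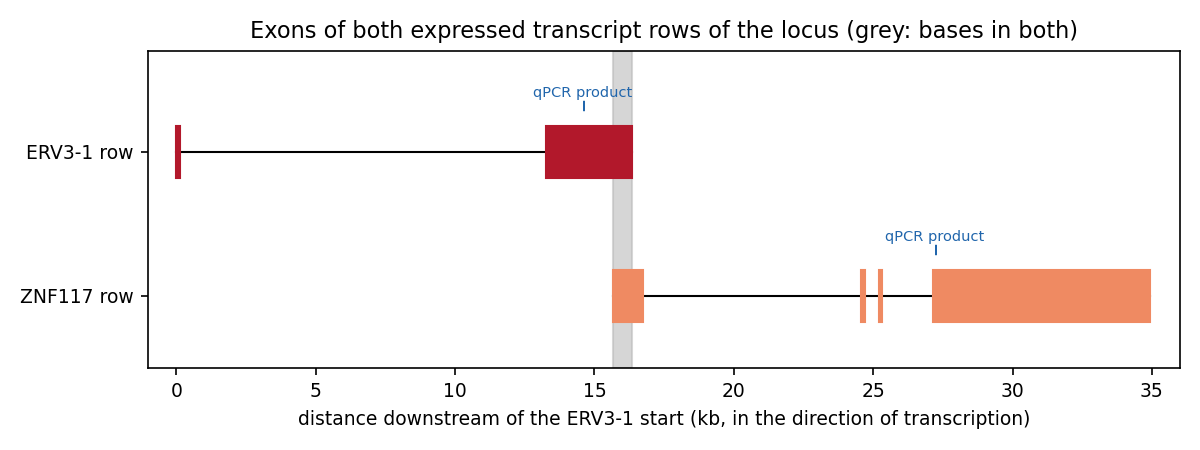
Exons of the ERV3-1 row and the main ZNF117 row, drawn to scale as boxes against the distance downstream of the ERV3-1 start in kb, with the direction of transcription from left to right. Grey marks the 681 bases that lie in exons of both, and blue marks the 81-base and 94-base products of the study's qPCR primers, which lie outside the shared bases.

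The study's qPCR primers are shown because they fix which stretch of each gene a PCR assay reads. They were matched to the transcripts of GENCODE release 44, and the ERV3-1 pair lies in exon 2 of ENST00000394323.3, at chr7:64992075-64992098 and chr7:64992018-64992041, with a product of 81 bases.
ERV3-1 forward: aactaatgccccaagataatttca
ERV3-1 reverse: ttaagaaccagatgctctgacttg
The ZNF117 pair lies in the last exon, at chr7:64979457-64979479 and chr7:64979386-64979406, with a product of 94 bases held by ENST00000282869.11 and ENST00000620222.4.
ZNF117 forward: tccagaaagtgaccctaagaaga
ZNF117 reverse: tgctgtttacactcaaccaca
The ERV3-1 product thus falls in bases that were exclusive to that row, whereas the ZNF117 product falls in bases that 2 rows of ZNF117 share.

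CpG sites are where DNA methylation acts, so the 250 bases upstream of the annotated starts were compared. RefSeq on GRCh38.p14 gave such a window for 6 of the 7 genes. Of 35116 upstream windows of this length, the median held 11 CpG sites. The windows of the joined ERV3-1-ZNF117 transcript (chr7:65006747-65006996, minus strand), of ERVK3-1 (chr19:58305127-58305376, plus strand) and of ERVK13-1 (chr16:2673440-2673689, minus strand) are shown to contrast a CpG-poor with CpG-rich starts, with each CpG in capitals.
ERV3-1-ZNF117: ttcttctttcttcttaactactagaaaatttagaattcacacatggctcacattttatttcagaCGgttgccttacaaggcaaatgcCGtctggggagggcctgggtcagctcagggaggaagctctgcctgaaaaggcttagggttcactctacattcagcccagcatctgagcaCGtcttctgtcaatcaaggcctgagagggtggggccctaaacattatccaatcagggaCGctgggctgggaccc
ERVK3-1: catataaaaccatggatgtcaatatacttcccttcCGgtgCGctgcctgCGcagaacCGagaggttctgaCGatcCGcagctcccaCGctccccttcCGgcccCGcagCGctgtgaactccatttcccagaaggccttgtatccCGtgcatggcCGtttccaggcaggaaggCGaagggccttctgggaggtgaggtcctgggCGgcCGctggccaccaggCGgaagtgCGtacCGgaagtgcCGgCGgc
ERVK13-1: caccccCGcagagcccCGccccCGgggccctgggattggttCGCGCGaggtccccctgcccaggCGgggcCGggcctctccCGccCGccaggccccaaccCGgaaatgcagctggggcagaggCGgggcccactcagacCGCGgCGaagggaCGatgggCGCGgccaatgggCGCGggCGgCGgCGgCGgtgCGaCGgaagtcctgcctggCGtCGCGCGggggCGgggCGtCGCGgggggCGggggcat
The first held 4 CpG sites, and 70.7% of all windows held as many or more. ERVK3-1 held 20, which 32.5% of windows reached, and ERVK13-1 held 35, which 5.80% reached. The window of ERV3-1 itself held 7 CpG sites and one at an alternative start 3, while the window of ZNF117 lies within an exon of ERV3-1 and held 1. ERVMER34-1 held 19 and ERVW-1 held 4. Methylation was not measured in these libraries.

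Nuclear receptors such as those for retinoic acid bind DNA at hexamers. Variants of such a hexamer were searched on both strands, and 33.8% of all windows held at least 1 of them. AGGTCA occurred in 12.1% of all windows, and here at the alternative ERV3-1 start and at ZNF117, with 1 match each. GGGTCA occurred in 12.1% of all windows, and here with 1 match in the overlapping windows of the joined transcript and of ERV3-1 and with 2 at the alternative ERV3-1 start. AGTTCA occurred in 8.80%, and here at ZNF117 and at ERVK3-1 with 1 match each. GGTTCA occurred in 7.16%, and here with 1 match in the overlapping windows of the joined transcript and of ERV3-1. The windows of ERVK13-1, ERVMER34-1 and ERVW-1 held no match. A match to such short letters is a description and not a binding site.

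Of the 7 genes, 4 reached 10 normalised counts in 3 or more libraries and were tested, namely ERV3-1, ZNF117, ERVK13-1 and ERVK3-1. ERVMER34-1, ERVFRD-1 and ERVW-1, whose envelope proteins are known from placenta, did not. Normalised counts are read counts divided by the authors' size factor of the library. Fold changes were taken on log2(normalised count + 1), with calls made below an adjusted p of 0.01.

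**Figure D2:**
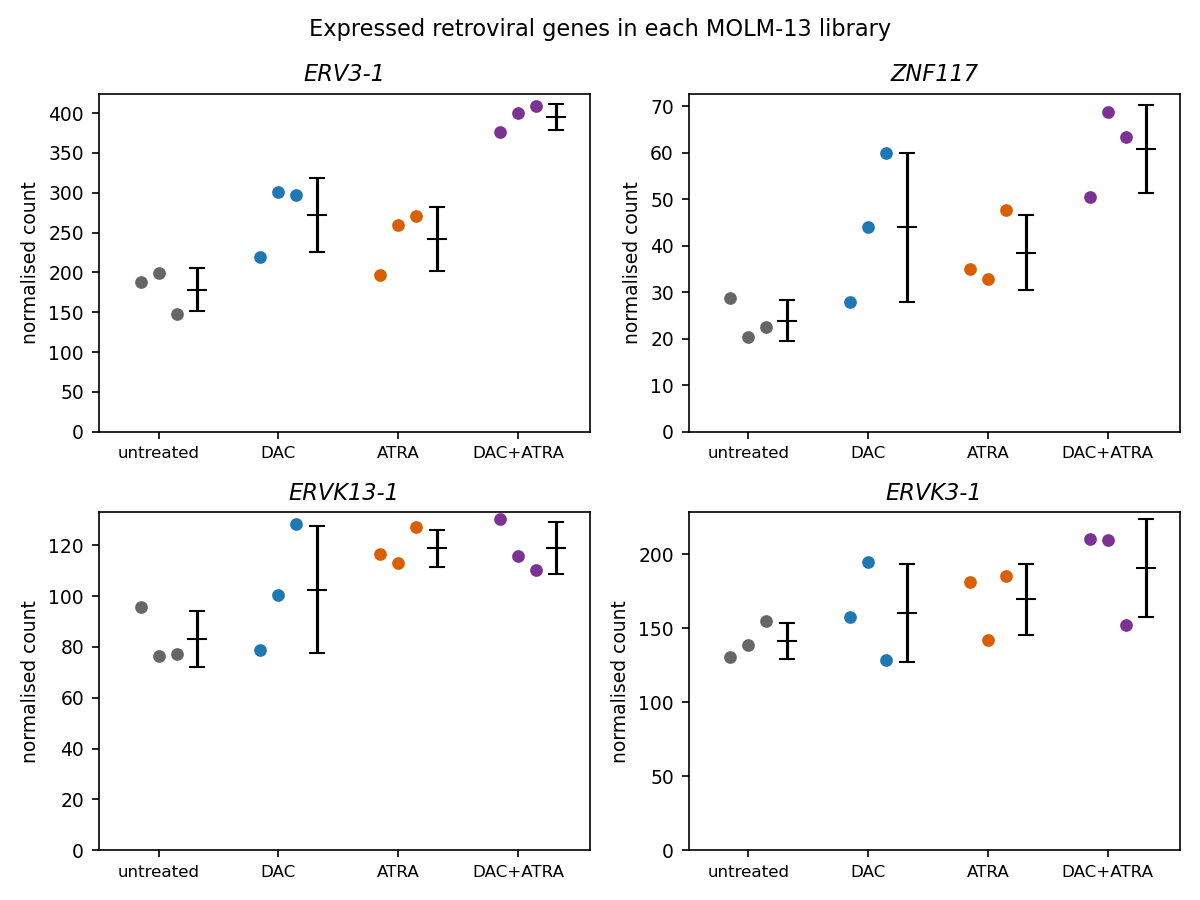
Normalised counts of the 4 detected genes, with a panel per gene. Points are the 3 libraries of each group, and the horizontal mark with bars is the mean ± SD. ERV3-1 was highest in the 3 DAC+ATRA libraries, at 377 to 408 against 147 to 199 in untreated cells, while the groups of ERVK3-1 overlapped.

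ERV3-1 RNA was present in every untreated library and was highest after the combination. The untreated libraries held 188, 199 and 147 normalised counts. The DAC libraries held 219, 301 and 297, and the ATRA libraries 196, 259 and 271. The DAC+ATRA libraries held 377, 400 and 408. The order of the group means was untreated, ATRA, DAC and DAC+ATRA, at 178 ± 27.2, 242 ± 40.1, 272 ± 46.4 and 395 ± 16.5 (SD, n = 3). The DAC+ATRA libraries lay above all others, DAC lay above untreated in every library, and the ATRA libraries overlapped with untreated at one end and with DAC at the other. These values rest on 722, 891, 637 and 1024 reads per group in the same order.

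ZNF117 RNA was low in untreated cells and also highest after the combination, with more overlap between groups. The untreated libraries held 28.8, 20.3 and 22.6 normalised counts. The DAC libraries held 28.0, 43.9 and 59.9, and the ATRA libraries 34.9, 32.7 and 47.7. The DAC+ATRA libraries held 50.4, 68.7 and 63.3. All ATRA and all DAC+ATRA libraries lay above the untreated ones, whereas DAC replicate 1 lay within their range and DAC replicate 3 within that of DAC+ATRA. Group means were 23.9 ± 4.39, 43.9 ± 15.9, 38.4 ± 8.05 and 60.8 ± 9.39 (SD, n = 3) for untreated, DAC, ATRA and DAC+ATRA. They rest on 98, 105, 140 and 159 reads.

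Both genes of the locus rose with DAC+ATRA. ERV3-1 rose 2.22-fold in the ratio of group means, with a log2 fold change of 1.15 (SE 0.16, 95% confidence interval 0.81 to 1.498, adjusted p = 1.68e-05, limma). ZNF117 rose 2.55-fold, with a log2 fold change of 1.31 (SE 0.29, interval 0.71 to 1.92, adjusted p = 0.00124). Thus 2 of the 4 tested genes were called higher and 0 lower, where 12.7% of the 13448 tested symbols were called higher and 13.4% lower. The other two were higher in the mean without passing the threshold. Each gene kept its call in 23 of 23 alternative settings that test it on its own, which include leaving out each library.

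DAC alone gave 0 calls among the 4 genes by limma (2 at an unadjusted p under 0.05, 1 call by DESeq2, 0 by edgeR), where limma called 3.68% of all tested symbols higher and 3.08% lower. Of all 13448 tested symbols, 3611 had an unadjusted p under 0.05, while DESeq2 called 1318 and edgeR 1015. The ratio of means for ERV3-1 was 1.53, with a log2 difference of 0.61 (interval 0.26 to 0.95) and an adjusted p of 0.0180 by limma. For ZNF117 the ratio was 1.84, with a log2 difference of 0.80 (interval 0.20 to 1.40, adjusted p = 0.0722, limma). For both genes DAC replicate 1 was the lowest of the 3 libraries. Without it, the ERV3-1 difference was 0.76 with an adjusted p of 0.00613 (limma). Without DAC replicate 2 or untreated replicate 3 the ERV3-1 difference was 0.53 and 0.48, with adjusted p of 0.0811 and 0.1. The limma call thus depended on which library was left out. DESeq2 on the recovered reads also called ERV3-1, with an adjusted p of 0.00531, whereas edgeR did not. Without DAC replicate 3 the differences were 0.54 for ERV3-1 (adjusted p = 0.0325, limma) and 0.55 for ZNF117 (adjusted p = 0.212).

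ATRA alone also gave 0 calls by limma (3 at an unadjusted p under 0.05, 0 calls by DESeq2 and 0 by edgeR), where limma called 11.1% of tested symbols higher and 12.6% lower. Of all 13448 tested symbols, 5639 had an unadjusted p under 0.05, while DESeq2 called 3663 and edgeR 3457. ERV3-1 differed by 0.44 on the log2 scale (interval 0.09 to 0.78, adjusted p = 0.0465, limma), and ZNF117 by 0.66 (interval 0.06 to 1.26, adjusted p = 0.0855). The 4 intervals of both genes with either single drug lay above 0, but the adjusted p values stayed above the threshold of 0.01. When libraries were left out, the ERV3-1 difference with ATRA ranged from 0.31 to 0.58. It was lowest without untreated replicate 3 (adjusted p = 0.214, limma) and highest without ATRA replicate 1 (adjusted p = 0.0131). All comparisons with untreated cells share the same 3 untreated libraries.

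The combination was next set against each drug. Against ATRA, ERV3-1 was higher in DAC+ATRA by 0.72 (SE 0.16, interval 0.37 to 1.06, adjusted p = 0.00438, limma), a ratio of means of 1.63. That is 1 of the 4 genes called higher and 0 lower, where 5.33% of tested symbols were called higher and 4.96% lower. This call was lost without ATRA replicate 1 (difference 0.57, adjusted p = 0.0250), without ATRA replicate 2 (0.77, adjusted p = 0.0111) and without DAC+ATRA replicate 1, 2 or 3 (0.75, 0.71 and 0.69, with adjusted p of 0.0132, 0.0209 and 0.0231). ZNF117 differed by 0.65 in the same comparison (interval 0.05 to 1.26, adjusted p = 0.125). Against DAC there were 0 calls by limma (1 at an unadjusted p under 0.05, 1 call by DESeq2, 0 by edgeR), where limma called 8.20% of symbols higher and 8.94% lower. Of all 13448 tested symbols, 5016 had an unadjusted p under 0.05 against DAC, while DESeq2 called 2516 and edgeR 2280. ERV3-1 then differed by 0.55 (interval 0.20 to 0.89, adjusted p = 0.0178) and ZNF117 by 0.51 (interval -0.09 to 1.11, adjusted p = 0.206). Without DAC replicate 1 the ZNF117 difference was 0.23. DESeq2 called ERV3-1 in this comparison, with an adjusted p of 0.00808.

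Whether the drugs add up was tested with the interaction, which is the DAC effect in the presence of ATRA minus that in its absence. For ERV3-1 the single changes sum to 1.04 on the log2 scale, beside 1.15 measured for the combination, an interaction of 0.11 (interval -0.37 to 0.60, adjusted p = 0.903, limma). For ZNF117 they sum to 1.46 beside 1.31, an interaction of -0.15 (interval -0.997 to 0.70, adjusted p = 0.930). The interaction was called in 0 of the 4 genes by limma, DESeq2 and edgeR (0 at an unadjusted p under 0.05), where by limma 0.573% of tested symbols had a positive and 0.714% a negative one. Of all 13448 tested symbols, 1864 had an unadjusted p under 0.05, while DESeq2 called 341 and edgeR 191. The intervals of both genes are wide, so neither an excess nor a shortfall of this size could be told from adding up on the log2 scale.

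**Figure D3:**
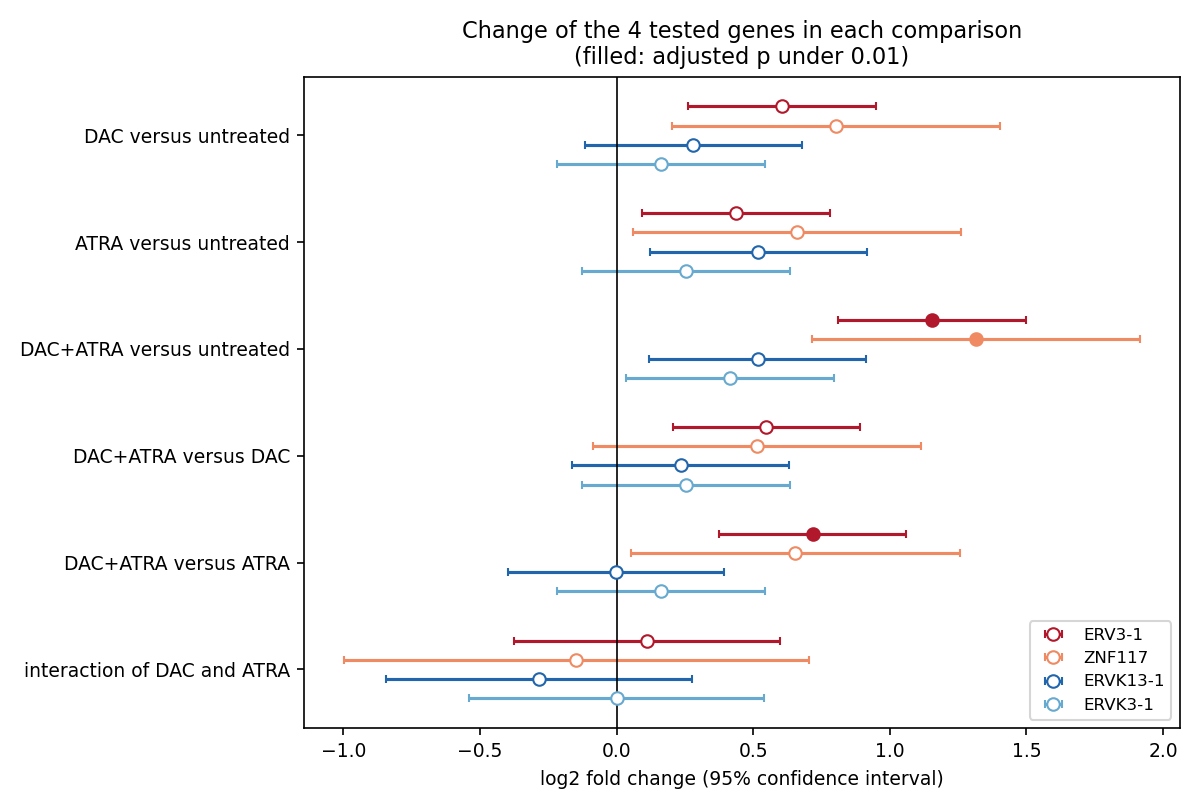
Log2 fold changes of the 4 detected genes in the 5 comparisons and the interaction, with 95% confidence intervals from limma. Filled points passed an adjusted p under 0.01, which only ERV3-1 and ZNF117 did in DAC+ATRA against untreated and ERV3-1 did in DAC+ATRA against ATRA.

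The rows of the locus were then compared one by one, since both genes share strand and exons. The ERV3-1 symbol has a single row, so its values are those of the gene. Of the ZNF117 rows, ENST00000282869.11 held 474 reads over the 12 libraries, ENST00000620222.4 held 28 in 11 of 12 libraries, and ENST00000610793.1 held 0. The 28 reads fell on a row with only 3 exclusive bases and were at most 6 in a library. The main ZNF117 row had means of 22.6 ± 3.53, 39.9 ± 14.0, 37.3 ± 7.53 and 57.3 ± 8.66 (SD, n = 3) in untreated, DAC, ATRA and DAC+ATRA cells. It was higher in DAC+ATRA than in untreated cells by 1.30 on the log2 scale (adjusted p = 0.00160, limma over 18241 rows), next to 1.15 for the ERV3-1 row (adjusted p = 1.95e-05). These were 2 of the 5 tested rows of the 4 genes, where 10.1% of all tested rows were called higher. Against ATRA only the ERV3-1 row was called higher (0.72, adjusted p = 0.00552), where 3.78% of rows were. None of the 5 rows was called with DAC, with ATRA, or with DAC+ATRA against DAC, where 2.64%, 9.10% and 6.70% of rows were called higher.

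Per kb of exclusive bases the ERV3-1 row stood well above the ZNF117 row. The ERV3-1 level was 70.6 ± 10.8 normalised counts per kb in untreated and 156 ± 6.52 in DAC+ATRA cells (SD, n = 3). The ZNF117 level was 7.32 ± 1.14 and 18.6 ± 2.80. The lowest ERV3-1 value of any library, 58.4 per kb, was above the highest ZNF117 value, 20.8 per kb. On the same scale ERVK3-1 stood at 87.9 ± 7.68 in untreated cells and ERVK13-1 at 43.0 ± 7.15, taken over their main rows.

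The balance between both genes overlapped between all groups. In summed normalised counts, ZNF117 was 13.6 ± 2.94% of ERV3-1 in untreated cells, 15.8 ± 3.84% with DAC, 16.0 ± 2.92% with ATRA and 15.4 ± 1.90% with both drugs (SD, n = 3). It spanned 10.2% to 15.3% in untreated and 13.4% to 17.2% in DAC+ATRA libraries. An exact permutation test of the log2 ratio over the 4 groups gave F = 0.371 and p = 0.781. This p is the share of 369600 regroupings of the libraries with an F at least as high. A difference in this balance was therefore not detectable with 3 libraries per group, which does not show that it is the same.

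**Figure D4:**
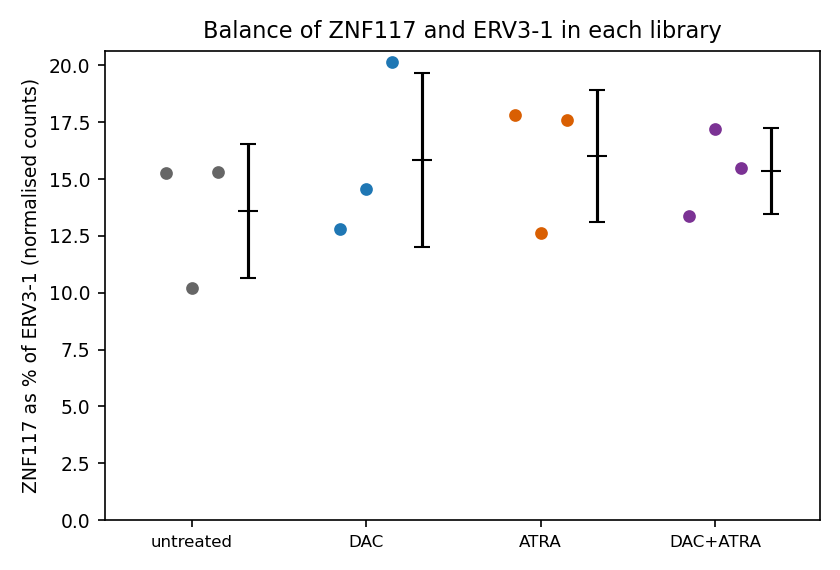
ZNF117 as a percentage of ERV3-1 in normalised counts, with a point per library and the mean ± SD of each group beside the points. The libraries range from 10.2% to 20.1%, and all 4 groups overlap.

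Other genes whose level followed that of ERV3-1 over the 12 libraries were ranked by Pearson's r of the log2 values among the 13448 tested symbols, as a description. Of the 5 nearest, 4 were KCNH3 (0.96), a potassium channel, TMEM176B (0.95), FUCA1 (0.93), a lysosomal fucosidase, and PRKCA (0.93), a protein kinase C. KCNH3 and TMEM176B passed the filter on low values only through the DAC+ATRA libraries, where ERV3-1 is also highest. KCNH3 held 24.8 to 32.2 normalised counts there and at most 7.84 in any other library. TMEM176B held 14.0 to 21.4 there and at most 6.27 elsewhere. The ranks of both thus depend in part on the filter. FUCA1, for example, had means of 1024, 2684, 2259 and 5394 normalised counts in untreated, DAC, ATRA and DAC+ATRA cells. ZNF117 ranked 22 with an r of 0.90, ERVK13-1 ranked 809 with 0.67 and ERVK3-1 ranked 2474 with 0.46. The points share libraries, depth and 4 treatments, so nothing about shared control or function follows.

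ERVK13-1 (ENSG00000260565.9, chr16:2660348-2682398, minus strand) and ERVK3-1 (ENSG00000142396.11, chr19:58305374-58316812, plus strand) belong to the HERV-K group, which has many similar copies in the genome. ERVK13-1 is annotated as a long non-coding RNA and ERVK3-1 as protein-coding. For a separate analysis of transposable elements the study's methods state that reads aligning to several places were counted. For the gene table analysed here the sources used do not say how such reads were treated, so both levels are uncertain.

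ERVK13-1 was detected in every library, with its lowest mean in untreated cells. The untreated libraries held 95.7, 76.3 and 77.2 normalised counts. The DAC libraries held 78.9, 100 and 128, and the ATRA libraries 116, 113 and 127. The DAC+ATRA libraries held 130, 116 and 110. All ATRA and all DAC+ATRA libraries lay above untreated, while DAC overlapped with every group. The difference from untreated was 0.52 on the log2 scale with ATRA (interval 0.12 to 0.92, adjusted p = 0.0409, limma) and 0.52 with DAC+ATRA (interval 0.12 to 0.91, adjusted p = 0.0390). With DAC it was 0.28 (interval -0.12 to 0.68, adjusted p = 0.374), or 0.11 without DAC replicate 3 and 0.45 without DAC replicate 1. DAC+ATRA and ATRA differed by -0.0027 (interval -0.40 to 0.39, adjusted p = 0.995). Of its 4 rows, ENST00000670385.1 held 1146 reads, and the others held 110, 66 and 0.

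ERVK3-1 was detected in every library, and no comparison passed the threshold. The untreated libraries held 131, 139 and 155 normalised counts. The DAC libraries held 158, 194 and 128, and the ATRA libraries 181, 142 and 186. The DAC+ATRA libraries held 210, 209 and 152. Each treated group overlapped with untreated. The difference from untreated was 0.16 with DAC (interval -0.22 to 0.54, adjusted p = 0.630), 0.25 with ATRA (interval -0.13 to 0.63, adjusted p = 0.314) and 0.41 with DAC+ATRA (interval 0.03 to 0.80, adjusted p = 0.0828), all by limma. The DAC difference was 0.012 without DAC replicate 2 and 0.31 without DAC replicate 3. All 2052 reads fell on the row ENST00000413518.5, whereas ENST00000427361.5, with 3 exclusive bases, had 0. Joined transcripts of ERVK3-1 and its neighbour ZNF8 were not analysed here.

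The 3 envelope genes known from placenta were at or near 0. ERVW-1 (ENSG00000242950.7, chr7:92468380-92477986), the gene of syncytin-1, had 0 reads in every library, on rows with 697 and 566 exclusive bases. Over all 95.2 M reads, a count of 0 allows up to 0.0315 reads per M, and within the DAC+ATRA group, with 19.3 M reads, up to 0.156, both for counting error only. ERVFRD-1 (ENSG00000244476.3, chr6:11102489-11111725), the gene of syncytin-2, had 7 reads in all. Its DAC libraries held 2, 2 and 1 reads, 1 untreated and 1 DAC+ATRA library held 1 each, and the ATRA libraries held 0. Its rows have only 51 and 44 exclusive bases among 3191 and 3184 exonic ones. At 3 reads or fewer per library no fold is given. ERVMER34-1 (ENSG00000226887.8, chr4:52722618-52751586) had 1 read, in untreated replicate 3, on rows with 990 and 120 exclusive bases. An effect of either drug on these 3 genes was not detectable from these counts. For ERVFRD-1, with so few exclusive bases, a low count does not show that its RNA was low.

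Syncytins fuse cells through amino acid and lipid transporters that serve as receptors, and the levels of these differed widely. SLC1A5 and SLC1A4, neutral amino acid transporters and receptors of syncytin-1, had means of 1211 ± 133 and 1652 ± 84.0 normalised counts in untreated cells (SD, n = 3). With ATRA they were 575 ± 45.4 and 725 ± 17.5, and both fell, with log2 fold changes of -1.07 and -1.19 (adjusted p = 1.30e-04 and 1.08e-07, limma). With DAC+ATRA they fell as well, by log2 fold changes of -0.72 and -0.43 (adjusted p = 0.00444 and 0.00549). SLC1A4 was also lower in DAC+ATRA than in DAC (-0.55, adjusted p = 0.00113) and higher than in ATRA (0.75, adjusted p = 1.05e-04). MFSD2A, a lipid transporter and the receptor of syncytin-2, stood at 9.62 ± 2.01 in untreated cells, near the filter level of 10. It was not called in any comparison. Of the 3 receptors, 2 fell with ATRA and 2 with DAC+ATRA, where 12.6% and 13.4% of all tested symbols were called lower, with medians of -1.07 and -0.57, against -0.03 and -0.01 over all tested symbols.

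Zinc finger genes are clustered around ZNF117 on chromosome 7, and many such genes bind and repress retroviral sequence. Of the 9 other genes of the cluster that were examined, 6 were tested and 0 were called in any of the 5 comparisons or the interaction by limma, DESeq2 or edgeR. At an unadjusted p under 0.05 there was 1 with ATRA, 1 with DAC+ATRA and 0 in the other comparisons. Of all 13448 tested symbols, 5639 reached this with ATRA and 6101 with DAC+ATRA. Of all tested symbols, limma called 3.68% higher and 3.08% lower with DAC, and 11.1% and 12.6% with ATRA. For both drugs these shares were 12.7% and 13.4%. For DAC+ATRA against DAC they were 8.20% and 8.94%, against ATRA 5.33% and 4.96%, and for the interaction 0.573% and 0.714%. At such shares, 0 calls among 6 genes do not show that the cluster was unaffected. The 6 genes had a median log2 difference of -0.04 with DAC, 0.08 with ATRA and 0.06 with DAC+ATRA. Over all tested symbols it was -0.01, -0.03 and -0.01. ZNF107, at 26.3 normalised counts in untreated and 43.6 in DAC+ATRA cells, had the highest difference of the 6 with DAC+ATRA, 0.70 (adjusted p = 0.117, limma). ZNF736 and ZNF680, the most abundant, differed by 0.14 and -0.03. ZNF92 came nearest to a call by limma. Compared with untreated cells it differed by 0.74 under ATRA (adjusted p = 0.0376, limma) and by 0.58 under both drugs (adjusted p = 0.0943).

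Genes derived from retrotransposon gag sequences are the other main class of domesticated elements, and their members moved in different directions. Of 25 such genes, 12 were tested. With DAC 1 was called higher and 0 lower, where 3.68% and 3.08% of all tested symbols were. With ATRA 3 were called higher and 3 lower (11.1% and 12.6% of all), and with DAC+ATRA 3 higher and 0 lower (12.7% and 13.4% of all). PNMA2, PNMA5 and PNMA6A passed the filter on low values only through groups where they are high, so the counts are a description. Against DAC, 2 were higher and 1 lower in DAC+ATRA (8.20% and 8.94% of all), and 0 were called by limma, DESeq2 or edgeR against ATRA (2 at an unadjusted p under 0.05) or for the interaction (3). Of all symbols, limma called 5.33% higher and 4.96% lower against ATRA, and 0.573% and 0.714% for the interaction. An unadjusted p under 0.05 was found for 4153 and 1864 of all 13448 symbols in the same order. The 12 tested genes had a median log2 difference of -0.11, -0.04 and -0.02 with DAC, ATRA and DAC+ATRA, beside -0.01, -0.03 and -0.01 over all tested symbols.

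PNMA5, of the paraneoplastic Ma antigen family, was the gene called with DAC. It had 27, 13 and 11 reads in the DAC libraries, 0 in every untreated and ATRA library, and 1, 1 and 5 with DAC+ATRA. It was tested only because of the DAC libraries, so its values are given as a description. PNMA2, of the same family, held 21.0 ± 5.81 normalised counts with ATRA and 26.4 ± 11.5 with DAC+ATRA, against 1.55 ± 1.47 in untreated and 2.58 ± 2.18 in DAC cells (SD, n = 3). It likewise reached 10 normalised counts only in libraries with ATRA, so these values too are a description.

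RTL5 and RTL8C, retrotransposon Gag-like genes, rose with ATRA and with DAC+ATRA. RTL5 rose from 21.0 ± 4.05 to 53.6 ± 10.1 with ATRA and 74.9 ± 13.2 with DAC+ATRA, log2 fold changes of 1.31 and 1.79 (adjusted p = 4.22e-04 and 1.55e-05, limma). RTL8C rose from 111 ± 15.9 to 177 ± 9.04 and 194 ± 34.6, log2 fold changes of 0.68 and 0.80 (adjusted p = 0.00383 and 9.30e-04). RTL8B and ARC fell with ATRA, with log2 fold changes of -1.80 and -1.05 (adjusted p = 0.00814 and 0.00811). PNMA6A, also called lower with ATRA, reached 10 normalised counts only in the untreated libraries, with 13.1 ± 2.93 there and 2.22 ± 1.37 with ATRA (SD, n = 3), and this is given as a description. ARC, known from neurons, forms capsid-like particles.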

How the data were processed

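The authors made strand-specific libraries from rRNA-depleted RNA, mapped the reads on hg38 (STAR), obtained read counts by htseq-count and divided the counts by a DESeq2 size factor per library. The deposited values are this normalised signal per Ensembl transcript. In every library 100% of values were whole multiples of 1 step (tolerance 0.01), so whole reads were recovered by division. Versions and the annotation release are not given in the sources used here, and 88.9% of rows matched GENCODE release 44, whose coordinates are used. The columns named CTRL were taken as untreated.

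Rows were summed per symbol. Because the values are not counts, the main test was limma 3.58.1 (R 4.3.3) with trend on log2(normalised count + 1), with all 12 libraries in 1 fit and no covariate. It covered 13448 symbols that reached 10 normalised counts in 3 or more libraries, with Benjamini-Hochberg adjustment over all of them and a threshold of 0.01, as in the study. The log2 scale with a pseudocount of 1 understates changes of low genes. Replicate libraries differed beyond sampling noise, so none was a duplicate. Untreated replicate 3, DAC replicate 3 and ATRA replicate 1 stood apart within their groups. Their pairs had a chi-square per degree of freedom of 21.97 to 27.4, 27.45 to 33.81 and 23.66 to 24.5. The remaining pairs of these groups had 4.61, 5.028 and 7.903, and those of DAC+ATRA 2.257 to 7.358. The cause of this unequal spread was not tested. Intervals are 95% confidence intervals. The ZNF117 to ERV3-1 ratio was tested by exact permutation.

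The recovered reads were also tested with edgeR 4.0.16 and DESeq2 1.42.0. Further alternatives were other scalings, pseudocounts, filters and thresholds, protein-coding symbols only, only the compared groups, a replicate block, and leaving out each library. The count tests called 3914 (DESeq2) and 3688 (edgeR) symbols for DAC+ATRA against untreated. The fit was tested on simulated data. Named genes were the 7 genes, the 5 most like ERV3-1, and genes of the lists past the threshold or among the most abundant. ZNF107 and ZNF92 were named after their values were seen. A marker and a gene of these lists are not reported here. The genes and lists were chosen with earlier results of these data known.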

Additional observations from a re-analysis of the deposited data

How the results depend on the processing

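The calls of ERV3-1 and ZNF117 with DAC+ATRA against untreated were each kept in 23 of 23 alternative settings that test the gene on its own, with log2 fold changes of 1.02 to 1.24 and 1.19 to 1.45. The count of genes called was 2 in these settings and 3 at an adjusted p under 0.05. With DAC the count of 0 became 1 at an adjusted p under 0.05 and 1 with DESeq2, and ranged from 0 to 1 when libraries were left out. With ATRA it became 2 at 0.05. For DAC+ATRA against DAC it became 1 at 0.05 and 1 with DESeq2. Of all 13448 tested symbols, DESeq2 called 1318 with DAC and 2516 for DAC+ATRA against DAC. No share over all symbols is given beside the counts at 0.05, so they are a description and not a result about these genes. For DAC+ATRA against ATRA the count of 1 ranged from 0 to 1 when libraries were left out. The replicate numbers did not pair the libraries (18 same-number pairs, r from -0.23 to 0.09), and a replicate block left the count of genes called at 0, 0, 2, 0, 1 and 0 in the 5 comparisons and the interaction. Both genes of the locus summed were called against untreated (1.18, adjusted p = 1.21e-05) and against ATRA (0.71, adjusted p = 0.00445) in DAC+ATRA cells.

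Changes of sign occurred only for values with no call. The ERVK13-1 difference between DAC+ATRA and ATRA was 0.024 with total-count scaling and ranged from -0.070 to 0.049 when libraries were left out. The interaction ranged from -0.039 to 0.24 for ERV3-1, from -0.43 to 0.10 for ZNF117 and from -0.15 to 0.15 for ERVK3-1 when libraries were left out. It was 0.075 for ZNF117 with the locus summed, and for ERVK3-1 0.053 with total-count scaling and 0.00014 with a pseudocount of 5. The cause was not tested.

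Over all tested symbols, 909 were called with DAC, against 381 when the fit held only these groups, 524 and 570 without untreated replicate 2 and 1, and 1429 without DAC replicate 3. The interaction had 173, against 341 with DESeq2, 115 without untreated replicate 2 and 112 without DAC+ATRA replicate 2. DAC+ATRA against ATRA had 1384, against 841 to 910 without ATRA replicate 2 or 3 or DAC+ATRA replicate 2 or 3. ERVW-1, ERVMER34-1 and ERVFRD-1, with 0, 1 and 7 reads, could not be tested.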

Other observations

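Other symbols of endogenous retroviral loci had almost no reads. Of the 8 others in the table, 0 passed the filter. ERVH48-1, which codes for a secreted envelope protein called suppressyn, had 9 reads, with 5 in the DAC group, 2 in untreated, 2 in DAC+ATRA and 0 in ATRA cells. ERVK9-11 had 11 reads, ERVMER61-1 had 2 and ERVV-2 had 1, while ERVE-1, ERVH-1, ERVK-28 and ERVV-1 had 0 in all 12 libraries. With counts this low no fold is given.

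Genes lying within 50 kb of the 7 retroviral genes were looked at next. Of 19 such neighbours in the table, 13 were tested, and 1 was called higher with DAC and 0 lower (3.68% and 3.08% of all tested symbols), 2 higher and 2 lower with ATRA (11.1% and 12.6%), and 2 higher and 0 lower with DAC+ATRA (12.7% and 13.4%). In DAC+ATRA cells 2 were higher and 1 lower than with DAC (8.20% and 8.94%), and 1 was higher and 0 lower than with ATRA (5.33% and 4.96%). DANCR, a long non-coding RNA that overlaps ERVMER34-1 on the opposite strand, held 635 ± 43.0, 1031 ± 48.7, 361 ± 53.3 and 690 ± 13.4 normalised counts (SD, n = 3) in untreated, DAC, ATRA and DAC+ATRA cells, and rose with DAC by 0.70 and fell with ATRA by 0.82 on the log2 scale. KCTD5, which starts next to ERVK13-1 on the opposite strand, held 649 ± 56.8, 585 ± 82.4, 1428 ± 48.3 and 1301 ± 52.6. It rose with ATRA by 1.14 (adjusted p = 1.94e-07, limma), where ERVK13-1 differed by 0.52 without a call. A1BG-AS1, within 50 kb of ERVK3-1, rose with ATRA by 0.95 and with DAC+ATRA by 1.17. ZNF8, next to ERVK3-1, fell with ATRA by 0.85 (adjusted p = 0.00981).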
